A study of Homo sapiens with 104 samples.

Results

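The lines described here are the MGMT-expressing lymphoblastoid lines of a panel of 24 numbered human lines, and the measurement is their transcript response to MNNG. They were chosen by their untreated MGMT level: a numbered line belonged if its MGMT probe set averaged 7 or more on its 2 untreated arrays, as log2 of the deposited intensity plus 16 after quantile normalisation over the 52 untreated arrays. This level held for 17 of the 24 panel lines. MNNG arrays were left out where one probe set for the spiked-in cre transcript (AFFX-r2-P1-cre-5_at) lay more than 2 log2 units below another (AFFX-CreX-5_at), and lines 7, 8 and 16 then had no MNNG array. The remaining 14 lines, of 26 lines in the series, had 19 MNNG and 28 untreated arrays. Line 17 (7.37) was the lowest of the 14 and line 21 (8.06) the highest. The nearest lines on either side of the threshold were line 7 at 7.24, which lost its MNNG arrays, and line 20 at 6.74. Values on this scale start at 5.

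MNNG (N-methyl-N'-nitro-N-nitrosoguanidine) methylates DNA bases. Among its products O6-methylguanine is the most toxic, because it pairs with thymine during replication and the mismatch repair system then acts on the mispair, which can lead to strand breaks, checkpoint signalling and cell death. MGMT removes the methyl group from the guanine in a single step onto its own cysteine and is used up by it, so cells with MGMT tolerate such agents better than cells without it. The other methylated bases are removed mainly by base excision repair.

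The study compared untreated cells with MNNG-treated cells of each line, and the lines were B lymphocytes of donors immortalised into lymphoblastoid culture. RNA came from cultures in mid log phase, and each line and condition was put on duplicate arrays. The groups used here are the 14 MGMT-expressing lines after MNNG, the same 14 lines untreated, 5 low-MGMT panel lines (4, 9, 18, 19 and 20) after MNNG, and the same 5 lines untreated. TK6 and its MNNG-tolerant derivative MT1 are quoted once for comparison. Neither how much MNNG was given nor for how long is stated in the labels, and survival of the lines was not analysed here. Each line comes from 1 donor, and nothing says that duplicates were separate cultures. Duplicates were therefore averaged and the line was the replicate, except where differences between lines were tested.

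**Figure D1:**
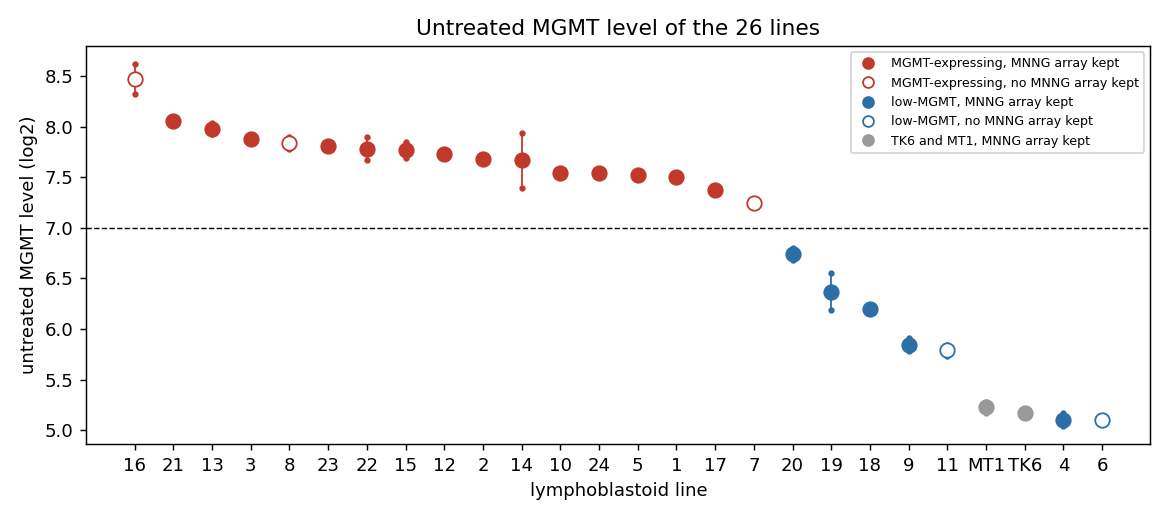
Untreated MGMT level (log2 of intensity plus 16, quantile normalised) of each of the 26 lines, with large circles for the mean and small points for the 2 arrays. Filled circles kept an MNNG array and open circles did not, and the dashed line is the threshold of 7. The MGMT-expressing lines lie between 7.24 and 8.47, above line 20 at 6.74.

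The arrays left out differed from those kept by several log2 units in the spike-in pair. The difference was 0.082 to 0.83 on kept MNNG arrays and -5.91 to -4.96 on the 22 left out of 52 in the series, 15 of which belonged to the 17 lines. Of the 14 lines, 5 kept both MNNG arrays and 9 kept 1. The MNNG array labelled replicate 1 was kept in 13 lines and that labelled replicate 2 in 6. In lines that kept 1, it was set against the mean of both untreated arrays, so replicate numbers were not balanced between the conditions. Duplicates correlated at 0.961 to 0.996 over genes (median 0.983, 19 pairs). Array brightness also moved with treatment: the median intensity of the MNNG arrays minus that of the untreated arrays was above 0 in 11 of 14 lines, by up to 1.18 log2 units in line 24. It was -1.46 in line 17, whose MNNG array had a median at the floor of the scale (16.0), -0.23 in line 14 and -0.053 in line 12. In the 5 low-MGMT lines the shift was -0.32 to 0.088. Lines 14 and 17 stood apart from the rest. Their changes over all genes correlated at -0.048 and -0.060 with the mean change of the other lines, against 0.38 to 0.77 for the other 12. Of the genes named below SALL4, GHSR and MOCS1 moved most without them, to changes of 1.80, 1.76 and 1.54, and PAPLN-AS1, ZFHX2, FOSL2 and ARHGEF4 came next, at 1.30, 1.21, 1.16 and 1.26. Without them NFKB2 changed by -1.05 and PKM by -0.72. The part of array brightness in the results was not tested beyond the values given. B-cell identity was plain in these cultures: 18 of 19 B-cell markers measured lay above 6 untreated, with a median level of 9.24. Only 3 of 15 T and NK-cell markers, 3 of 10 myeloid and 3 of 12 fibroblast and epithelial markers lay above 6, and their medians were 5.64, 5.77 and 5.76. Averaged over the markers, the lines lay between 5.89 and 6.16 after MNNG, against 5.89 and 6.11 untreated, for T and NK cells. For myeloid cells they lay between 5.94 and 6.32 after MNNG, against 5.91 and 6.35 untreated, and for fibroblasts and epithelium between 5.80 and 6.01 after MNNG, against 5.71 and 6.00 untreated. In bulk cultures fewer cells of a kind and less RNA per cell cannot be told apart.

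MNNG changed the level of many genes in these lines by a small amount. Of 13818 genes tested, 5479 (39.7%) passed at an adjusted p below 0.05 in limma's paired fit, of which 3681 rose (26.6%) and 1798 fell (13%). Counts of rises and falls on each gene list below are to be read against these shares. Only 38 of the risen and 32 of the fallen genes changed at least 1.5-fold. In all 14 lines 668 of these genes rose and 268 fell. How many of the calls were rises depended on how the arrays were brought to 1 scale. With each array centred on its median instead, 2918 genes passed, 623 up and 2295 down (21.4% up, against 67.2% with quantile normalisation), and the median change of all genes was -0.045. On the deposited scale 6735 passed, 89.6% of them up, and the median of all genes was 0.19. It was 0.039 with quantile normalisation. Falls of the genes named below passed under all 3 scalings, except those of RELA, RELB and RFC1, which did not pass on the deposited scale. Most rises of less than 0.5 log2 units did not pass with median centring, as given beside them. The lines differed widely in level, so the ranges over the 14 lines overlapped between the conditions for every gene whose lowest, median and highest level is given below, and the tests rest on the change within each line. With only the 5 lines that kept both MNNG arrays, limma called 0 genes (2763 at an unadjusted p below 0.05). Of the 5479 changes 98.9% had the same sign there. These lines are among the 14 that gave the calls, so this agreement is in part built in. All results also rest on the rule that left arrays out. With every array kept and 17 lines, 8981 genes passed and only 59.8% of the 5479 changes kept their sign.

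**Figure D2:**
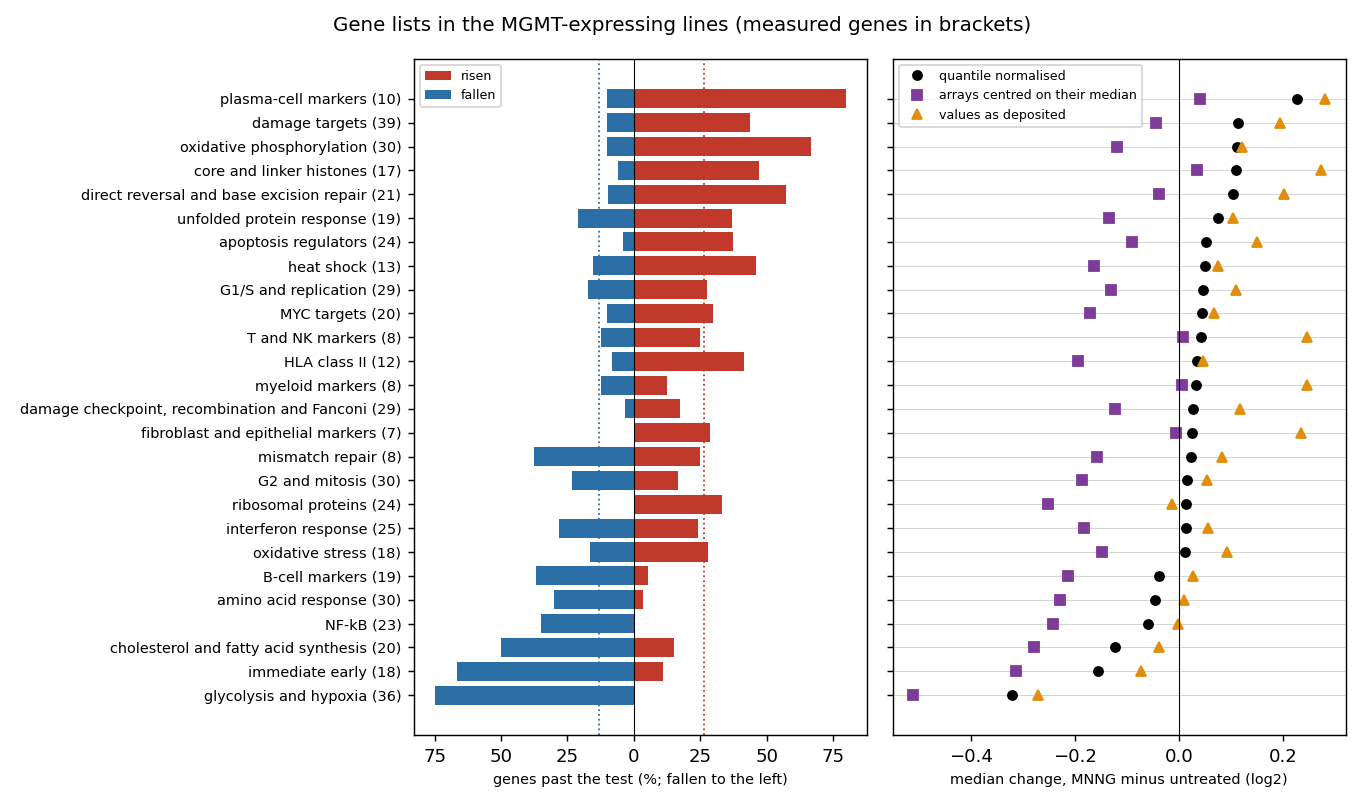
Left, the share of the measured genes of each list that rose (red, to the right) or fell (blue, to the left) past the test in the 14 lines, with dotted lines at the shares of all genes tested (26.6% risen, 13% fallen). MGMT is counted in its repair list. Right, the median change of each list in log2 units under 3 ways of scaling the arrays. Glycolysis and hypoxia genes have the lowest median under each scaling, whereas several medians above 0 with quantile normalisation lie below 0 with arrays centred on their median.

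The clearest change was a fall of genes of glycolysis and of the response to low oxygen. Many of these genes are targets of the hypoxia-inducible factors, transcription factors that bind a short core motif and raise glucose uptake, glycolytic enzymes and collagen hydroxylases. Of 36 measured genes 27 fell, 0 rose and 9 did not pass, and the median change was -0.32 against 0.039 for all genes. The median of the list was below 0 in all 14 lines, from -0.59 in line 15 to -0.07 in line 10. With arrays centred on their medians 30 fell and with the deposited values 26 fell, with medians of -0.51 and -0.27. With the left-out arrays kept, 16 fell and 0 rose. The RefSeq promoters (GRCh38.p14, 300 bases around the start) of the 4 called genes of the list with the largest falls are shown, because many genes of the list are targets of these factors. Capitals mark ACGTG, the core bound by hypoxia-inducible factors, and its reverse complement CACGT. They lie at chr10:73096817-73097116, minus strand (P4HA1), chr3:48556754-48557053, minus strand (PFKFB4), chr15:72231141-72231440, minus strand (PKM) and chr17:28576846-28577145, minus strand (ALDOC).
P4HA1 promoter: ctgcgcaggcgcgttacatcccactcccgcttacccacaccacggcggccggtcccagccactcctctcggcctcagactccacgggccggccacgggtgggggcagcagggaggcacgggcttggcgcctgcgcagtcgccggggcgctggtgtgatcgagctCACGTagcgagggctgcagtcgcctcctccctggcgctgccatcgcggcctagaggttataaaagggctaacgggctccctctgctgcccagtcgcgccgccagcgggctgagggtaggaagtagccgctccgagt
PFKFB4 promoter: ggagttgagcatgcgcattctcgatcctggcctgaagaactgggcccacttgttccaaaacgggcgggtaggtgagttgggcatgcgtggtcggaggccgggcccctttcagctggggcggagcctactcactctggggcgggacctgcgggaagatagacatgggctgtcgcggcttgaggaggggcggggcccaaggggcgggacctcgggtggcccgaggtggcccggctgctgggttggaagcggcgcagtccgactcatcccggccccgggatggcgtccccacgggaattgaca
PKM promoter: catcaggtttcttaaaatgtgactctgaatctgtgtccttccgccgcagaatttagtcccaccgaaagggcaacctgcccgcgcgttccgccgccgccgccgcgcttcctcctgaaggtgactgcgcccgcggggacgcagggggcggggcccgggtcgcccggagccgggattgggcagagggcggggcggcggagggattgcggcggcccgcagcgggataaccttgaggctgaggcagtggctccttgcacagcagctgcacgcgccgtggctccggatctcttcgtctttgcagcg
ALDOC promoter: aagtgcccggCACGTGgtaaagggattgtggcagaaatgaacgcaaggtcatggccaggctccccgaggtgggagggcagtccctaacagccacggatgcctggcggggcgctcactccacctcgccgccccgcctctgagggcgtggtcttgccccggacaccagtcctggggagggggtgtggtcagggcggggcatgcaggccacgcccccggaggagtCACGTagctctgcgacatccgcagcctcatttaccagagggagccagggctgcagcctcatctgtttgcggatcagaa
The P4HA1 window holds 1 match. The ALDOC window holds a CACGT and a CACGTG, in which both strands match and which is also the E-box bound by MYC. The PFKFB4 and PKM windows hold 0. Over the list, 15 of the 32 tested genes with a promoter in the table held a match on either strand (46.9%), as did 14 of the 24 fallen genes among them (58.3%). The motif was in 25.8% of the 11062 promoters of genes tested and in 21.6% of all 27305 in the table. Matches outside CACGTG were in 40.6% of the list, 50% of its fallen genes and 18% of genes tested. The list was made of glycolysis and hypoxia genes, so a share above that of all genes is in part built in. A match is a string of letters in this window and says nothing about binding.

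P4HA1, a subunit of the prolyl hydroxylase that modifies collagen, had log2 levels of 8.37, 8.99 and 9.76 after MNNG, against 9.15, 9.75 and 10.55 untreated (lowest, median and highest of the 14 lines). It was lower after MNNG in 14 of 14 lines, with changes from -0.34 in line 14 to -1.20 in line 15. The paired change was -0.77 ± 0.059 (SE, adjusted p = 1.31e-06). PFKFB4, which makes the fructose bisphosphate that drives phosphofructokinase, had levels of 6.00, 7.12 and 8.47 after MNNG, against 6.95, 7.72 and 9.09 untreated. It too was lower in 14 of 14 lines, with a mean change of -0.72 ± 0.086 (SE, adjusted p = 6.95e-06). The pyruvate kinase PKM averaged 10.85 ± 0.19 after MNNG, against 11.52 ± 0.20 untreated (SD, n = 14). It fell, changing by -0.67 ± 0.075 (SE, adjusted p = 4.3e-06), and line 14 alone was not lower. The other probe set of PKM, at 7.00 untreated, changed by only -0.074 and was lower in 10 of 14 lines. The aldolase ALDOC averaged 9.26 ± 0.87 after MNNG, against 9.82 ± 0.70 untreated (SD, n = 14) and fell in 14 of 14 lines. Of the glycolytic enzymes themselves, hexokinases HK1 and HK2, GPI, PFKL, PFKP, ALDOA, TPI1, PGK1, ENO1, ENO2 and LDHA also fell, the last by only -0.084, and PGAM1 did not pass (-0.031). The glucose transporter SLC2A3 fell (-0.42) and SLC2A1 did not pass (-0.0018). HIF1A itself changed by -0.067 (adjusted p = 0.271). The slope of these changes on the array-median shift did not pass for any of P4HA1, PFKFB4, PKM or ALDOC (adjusted p = 0.804, 0.751, 0.869 and 0.95 for PKM, ALDOC, P4HA1 and PFKFB4 in limma). At equal array medians P4HA1 changed by -0.78, PFKFB4 by -0.72, PKM by -0.65 and ALDOC by -0.58.

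MYC and other early-response genes fell as well. MYC, a transcription factor that drives growth and that Epstein-Barr virus immortalisation keeps high, had levels of 9.12, 9.81 and 10.31 after MNNG, against 9.89, 10.32 and 11.19 untreated. It was lower after MNNG in 14 of 14 lines, with changes of -0.87 to -0.18 and a mean change of -0.58 ± 0.049 (SE, adjusted p = 1.31e-06). Of 18 measured immediate early genes 12 fell and 2 rose, with medians of -0.16 with quantile normalisation, -0.31 with arrays centred on their medians and -0.073 on the deposited scale. With the deposited scale 6 fell and 2 rose. EGR3, a zinc-finger factor induced by receptor signalling, fell, changing by -0.34 ± 0.058 (SE, adjusted p = 0.000147), and the phosphatase DUSP5 by -0.34 ± 0.054 (SE, adjusted p = 7.57e-05). The 2 that rose were IER3 (0.31, and 0.13 with median centring, which did not pass) and FOSL2 (0.85), whose change had a called slope with array brightness and was 0.24 at equal array medians, where it did not pass (adjusted p = 0.222 in limma). Of 20 targets of MYC 6 rose and 2 fell, close to the shares of all genes (26.6% and 13%), with medians of 0.045 with quantile normalisation, -0.17 with arrays centred on their medians and 0.068 on the deposited scale. With the left-out arrays kept, the immediate early median was 0.0099, 4 of 19 fell, and EGR3 and DUSP5 changed sign.

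NF-kB genes fell or did not pass. NF-kB is the transcription factor family that the viral protein LMP1 keeps active in lymphoblastoid lines. Of 23 measured genes 8 fell and 0 rose, with medians of -0.059 with quantile normalisation, -0.24 with arrays centred on their medians and -0.0023 on the deposited scale. On the deposited scale 5 fell and 3 rose. NFKB2, the precursor of the p52 subunit, averaged 7.41 ± 0.18 after MNNG, against 8.36 ± 0.41 untreated (SD, n = 14). Its level was lower in 13 of 14 lines, the exception being line 14 (0.011), and it fell, changing by -0.95 ± 0.088 (SE, adjusted p = 2.31e-06). A second probe set of NFKB2 was lower in 14 of 14 lines, with a mean change of -0.68, and the third, near the bottom of the scale, changed by -0.023. NFKB1, the precursor of p50, fell, changing by -0.34 ± 0.044 (SE, adjusted p = 1.39e-05). The adhesion molecule ICAM1, a target of the family, fell, changing by -0.40 ± 0.052 (SE, adjusted p = 1.42e-05), and IRF4, which the family induces in B cells, by -0.42 ± 0.072 (SE, adjusted p = 0.000158). RELA and RELB fell, changing by -0.17 and -0.16, and the inhibitor NFKBIA changed by 0.028 (adjusted p = 0.62).

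Biosynthetic genes moved in the same direction in part. Of 30 genes of the amino acid response, which the factor ATF4 induces, 9 fell and 1 rose, and the medians were -0.046 with quantile normalisation, -0.23 with arrays centred on their medians and 0.0099 on the deposited scale. The glycyl-tRNA synthetase GARS1 averaged 10.39 ± 0.23 after MNNG, against 10.85 ± 0.23 untreated (SD, n = 14) and fell in 14 of 14 lines, changing by -0.46 ± 0.038 (SE, adjusted p = 1.31e-06). EPRS1, AARS1 and the growth inhibitor DDIT4 fell, changing by -0.48, -0.32 and -0.35. DDIT4 also counts among the hypoxia genes. Of 20 genes of cholesterol and fatty acid synthesis 10 fell and 3 rose, with medians of -0.12 with quantile normalisation, -0.28 with arrays centred on their medians and -0.038 on the deposited scale. The desaturase SCD averaged 10.21 ± 0.65 after MNNG, against 10.73 ± 0.51 untreated (SD, n = 14) and fell in 14 of 14 lines, changing by -0.51 ± 0.063 (SE, adjusted p = 8.28e-06). Fatty acid synthase FASN fell, changing by -0.40 and SREBF2, the regulator of sterol synthesis, by -0.36, both in 14 of 14 lines. NSDHL, a sterol enzyme, rose by 0.28 but by 0.16 with median centring, which did not pass.

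Among genes of the mature B cell more fell than rose, and most genes of antibody-secreting cells rose, the rises only in part with other scalings. Of 19 B-cell markers 7 fell and 1 rose, and of 10 plasma-cell markers 8 rose and 1 fell, IRF4, which is also on the NF-kB list. With median centring 1 plasma-cell marker rose and 1 fell, and 7 B-cell markers fell and 0 rose. The medians of the plasma-cell list were 0.23 with quantile normalisation, 0.041 with arrays centred on their medians and 0.28 on the deposited scale, and the line medians with quantile normalisation were above 0 in all 14 lines, from 0.089 to 0.32. The medians of the B-cell list were -0.038 with quantile normalisation, -0.21 with arrays centred on their medians and 0.026 on the deposited scale. PRDM1, the repressor that drives plasma-cell differentiation, had levels of 5.43, 8.47 and 9.16 after MNNG, against 5.25, 7.93 and 8.87 untreated. It was higher after MNNG in 14 of 14 lines and rose by 0.52 ± 0.066 (SE, adjusted p = 1.09e-05), and by 0.39 with median centring, which also passed. A second probe set of PRDM1 changed by 0.57 and the dimmest changed by -0.014. The survival receptor TNFRSF17 rose by 0.37 ± 0.039 (SE, adjusted p = 3.44e-06) and the secretory chaperone FKBP11 by 0.30 ± 0.034 (SE, adjusted p = 4.55e-06), both in 14 of 14 lines. With median centring they changed by 0.17 and 0.087 and did not pass, and TNFRSF17 was lower when the left-out arrays were kept. Among B-cell markers the Src-family kinase BLK fell, changing by -0.50 ± 0.057 (SE, adjusted p = 4.93e-06), the inhibitory receptor CD22 by -0.34 and the tetraspanin CD37 by -0.33, all in 14 of 14 lines. The B-cell factor SPIB fell, changing by -0.32 in 13 of 14 lines. The median change of the plasma-cell list was 0.23 in the MGMT-expressing lines and 0.23 in the low-MGMT lines.

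**Figure D3:**
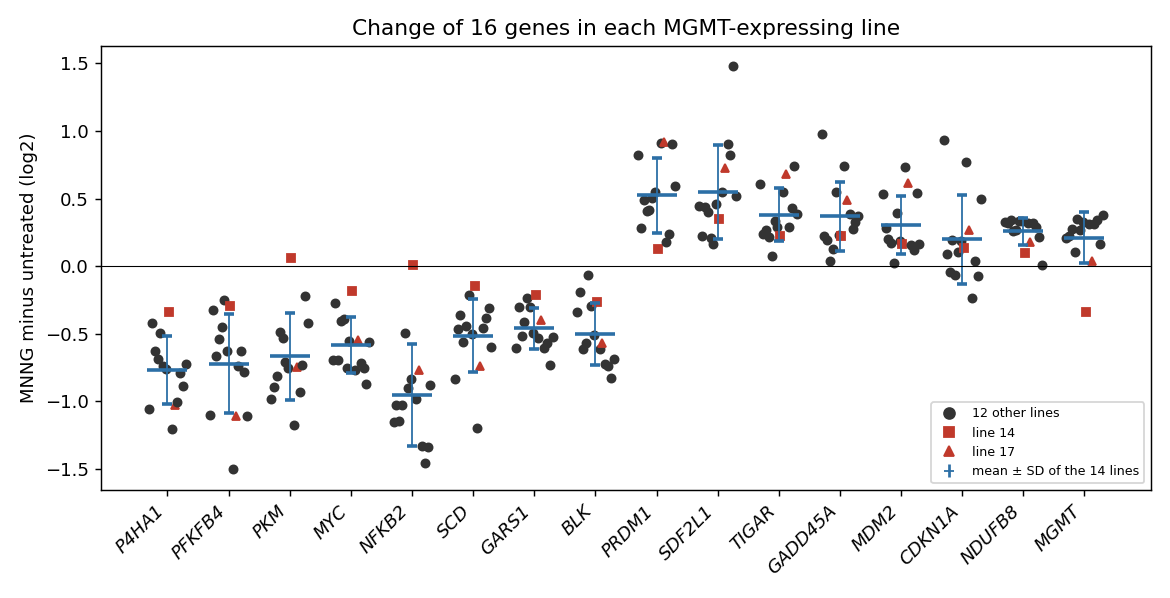
MNNG minus untreated (log2) of 16 genes in each of the 14 lines, with the mean and SD in blue, line 14 as a square and line 17 as a triangle. P4HA1, PFKFB4, MYC, SCD, GARS1 and BLK lie below 0 in all 14 lines, and PRDM1, SDF2L1, TIGAR, GADD45A, MDM2 and NDUFB8 above 0 in all 14. CDKN1A spans -0.23 to 0.93.

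Among genes that respond to DNA damage rises outnumbered falls, as they did over all genes, by small amounts and not with median centring. Their products arrest the cell cycle, repair DNA or take part in cell death after strand breaks. Of 39 measured genes 17 rose and 4 fell, where 26.6% of all genes rose and 13% fell, and the medians were 0.11 with quantile normalisation, -0.044 with arrays centred on their medians and 0.20 on the deposited scale. The line medians with quantile normalisation ran from 0.024 in line 22 to 0.30 in line 1, and they were above the median of all genes in 11 of 14 lines and with median centring in 7. With arrays centred on their medians 2 rose and 5 fell, and the list's median lay 0.00036 above that of all genes. With the left-out arrays kept, 10 rose and 13 fell. TIGAR, a phosphatase that lowers glycolytic flux, averaged 9.19 ± 0.34 after MNNG, against 8.81 ± 0.43 untreated (SD, n = 14). It was higher in 14 of 14 lines and rose by 0.38 ± 0.048 (SE, adjusted p = 1.07e-05). GADD45A, a growth-arrest gene, had levels of 7.62, 8.52 and 10.12 after MNNG, against 7.19, 8.12 and 10.00 untreated, and it rose by 0.37 ± 0.061 (SE, adjusted p = 0.000119), with 0.98 in line 1 at the top. MDM2, which encodes a ubiquitin ligase, was higher in 14 of 14 lines and rose by 0.31 ± 0.052 (SE, adjusted p = 0.000155). Of its 4 probe sets with an untreated level above 6, 3 were higher after MNNG and the other changed by -0.23. With median centring TIGAR, GADD45A and MDM2 changed by 0.19, 0.20 and 0.093 and did not pass.

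CDKN1A, the cell-cycle inhibitor p21 and a standard readout of the damage response, had levels of 9.70, 10.23 and 11.15 after MNNG, against 9.30, 9.99 and 11.21 untreated. It was higher in 10 of 14 lines and changed by -0.23 to 0.93. Its mean change of 0.20 ± 0.076 (SE, adjusted p = 0.0444) passed only just. The call was lost when any 1 of lines 1, 2, 5, 12, 13, 14, 15, 17 and 24 was left out, or with median centring (-0.0063). The call was also lost without the filter on low genes, without the trended prior, with both kinds of line in 1 fit and with the array-median shift as covariate. The same held with each gene's probe sets averaged, although CDKN1A has only 1 probe set, so its own values were not altered. The pro-apoptotic gene BAX fell, changing by -0.39 ± 0.062 (SE, adjusted p = 7.69e-05), and its second probe set changed by -0.37. ZMAT3, an RNA-binding protein, fell, changing by -0.58 on its brightest probe set, but its 5 probe sets disagreed and ranged from -0.58 to 0.20. TP53I3 rose by 0.30, also with median centring (0.21), TRIAP1 rose by 0.32 and did not pass with median centring (0.11), and CCNG1 fell, changing by -0.15. PMAIP1 fell, changing by -0.18 on its brightest probe set, while its other probe set changed by 0.10 and was higher in 9 of 14 lines.

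Repair genes moved by small amounts in both directions. MGMT itself had levels of 7.35, 7.97 and 8.38 after MNNG, against 7.39, 7.73 and 8.07 untreated, and changed by 0.21, above 0 in 13 of 14 lines, the exception being line 14 (-0.34). Its untreated level chose the lines, so this change is given without a test, and it was 0.048 with median centring and 0.27 without lines 14 and 17. The 2 untreated arrays of line 14 themselves lay at 7.94 and 7.39 for MGMT, on the scale used to choose the lines. Of the other 20 genes of direct reversal and base excision repair 11 rose and 2 fell, with medians of 0.10 with quantile normalisation, -0.046 with arrays centred on their medians and 0.19 on the deposited scale. With median centring 0 rose and 3 fell. LIG3, the ligase of base excision, rose by 0.24 on its brightest probe set, though only 3 of its 6 probe sets had that sign and the call was lost with their mean, and the flap endonuclease FEN1 rose by 0.20. PARP1, which senses strand breaks, averaged 10.31 ± 0.12 after MNNG, against 10.58 ± 0.11 untreated (SD, n = 14) and fell in 14 of 14 lines, changing by -0.27 ± 0.028 (SE, adjusted p = 3.34e-06). MPG, the glycosylase that removes methylated purines, changed by -0.031 ± 0.035 (SE, adjusted p = 0.513) and did not pass, but with median centring it fell, changing by -0.20 (adjusted p = 0.0426 in limma). Of 8 mismatch repair genes 2 rose and 3 fell. MSH6, which takes part in recognising mispairs, fell, changing by -0.17 ± 0.042 (SE, adjusted p = 0.00298), RFC1 and RPA1 by -0.19 and -0.18, and the sliding clamp PCNA rose by 0.21 ± 0.042 (SE, adjusted p = 0.000815). Among 29 genes of checkpoints, recombination and the Fanconi pathway 5 rose and 1 fell, a lower share each way than over all genes. BRCA1 rose by 0.25 on its brightest probe set, but its other probe set changed by -0.15 and was lower in 12 of 14 lines, and the call was lost with the mean of all probe sets. The checkpoint kinase CHEK1 rose by 0.19, and the recombination gene XRCC2 fell, changing by -0.36. With median centring FEN1 and PCNA changed by -0.011 and -0.0099, BRCA1 by 0.095 and CHEK1 by 0.017, and none of these passed. LIG3 was at 0.16 and did not pass either.

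Nuclear genes of oxidative phosphorylation rose with quantile normalisation and on the deposited scale, but not with median centring. Of 30 measured 20 rose and 3 fell with quantile normalisation, 21 rose and 2 fell on the deposited scale, and 0 rose and 2 fell with median centring. Line medians were above 0 in all 14 lines with quantile normalisation. The median was 0.11 with quantile normalisation, -0.12 with arrays centred on their medians and 0.12 on the deposited scale. Relative to the median of all genes it was 0.072 with quantile normalisation and -0.074 on the other 2 scales. The ATP synthase subunit ATP5MC1 and the complex I subunits NDUFB8 and NDUFB3 rose by 0.29, 0.26 and 0.25 in 14 of 14 lines, whereas NDUFV1, another complex I subunit, fell, changing by -0.25 in 14 of 14. A second probe set of NDUFB8 changed by 0.13, but its dimmest changed by -0.16 and was lower in 12 of 14 lines. With median centring ATP5MC1, NDUFB8 and NDUFB3 changed by 0.074, 0.041 and 0.035 and did not pass. With the left-out arrays kept, 18 of 30 fell. Levels of these transcripts are high (a median of 10.9 untreated), and 24 ribosomal protein genes, with a median of 12.9, showed 8 rises and 0 falls with quantile normalisation and 0 rises and 5 falls with median centring.

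Other groups split. Of 19 genes of the unfolded protein response, which expands the folding capacity of the endoplasmic reticulum, 7 rose and 4 fell, with medians of 0.075 with quantile normalisation, -0.13 with arrays centred on their medians and 0.10 on the deposited scale. SDF2L1, a chaperone partner, averaged 8.85 ± 0.73 after MNNG, against 8.30 ± 0.79 untreated (SD, n = 14) and rose by 0.55 ± 0.081 (SE, adjusted p = 4.34e-05), also with median centring (0.36). MANF rose by 0.47, and the disulfide isomerase PDIA4 fell, changing by -0.50 on its brightest probe set and changed by 0.15 on the other. Of 25 interferon-response genes 6 rose and 7 fell: the chemokine CXCL10 rose by 0.58 ± 0.09 (SE, adjusted p = 6.85e-05) and by 0.46 with median centring, while IFI6 and the viral RNA sensor OAS2 fell, changing by -0.62 and -0.45. Among 12 HLA class II genes 5 rose and 1 fell. The invariant chain CD74 averaged 12.61 ± 0.16 after MNNG, against 12.95 ± 0.16 untreated (SD, n = 14) and fell, changing by -0.34, and HLA-DMB rose by 0.25. The mitochondrial chaperone HSPE1 rose by 0.35 among 6 risen and 2 fallen of 13 heat shock genes. The histone H2BC5 rose by 0.30 among 8 risen and 1 fallen of 17. Of 24 apoptosis regulators 9 rose and 1 fell, with XIAP, a caspase inhibitor, at 0.30 on its brightest probe set. Its 7 probe sets ranged from -0.13 to 0.30, 3 of them above 0, and the call was lost with their mean. Of these rises, MANF, HLA-DMB, HSPE1, H2BC5 and XIAP did not pass with median centring. Proliferation genes showed no common direction. Of 30 genes of G2 and mitosis 5 rose and 7 fell, with the proliferation marker MKI67 at -0.38 and the checkpoint kinase BUB1 at -0.28, and of 29 genes of G1/S and replication 8 rose and 5 fell, with E2F2 at 0.28 on its brightest probe set. The other 2 probe sets of E2F2 changed by -0.018 and -0.10, and the call was lost with the mean of all 3. The dimmest of the 4 probe sets of MKI67 changed by 0.047. The median changes were 0.015 with quantile normalisation, -0.19 with arrays centred on their medians and 0.054 on the deposited scale for G2 and mitosis and 0.046 with quantile normalisation, -0.13 with arrays centred on their medians and 0.11 on the deposited scale for G1/S and replication. Of the oxidative stress genes 5 of 18 rose and 3 fell. LYZ, the lysozyme gene, rose by 0.67 in 12 of 14 lines and was the only one of 8 tested myeloid markers to rise, while 1 fell. Among 8 T and NK-cell markers 2 rose and 1 fell, and among 7 fibroblast and epithelial markers 2 rose and 0 fell.

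Of the 12 largest rises 9 had a called slope with array brightness. GHSR, a hormone receptor not known for a role in B cells, had levels of 5.80, 8.94 and 9.55 after MNNG, against 5.59, 7.30 and 9.23 untreated. It changed by -2.54 to 3.68 and on average by 1.29 ± 0.36 (SE, adjusted p = 0.00796), with its lowest value in line 17 and its highest in line 24, which are the lines with the lowest and the highest shift of the array median. SALL4 changed by 1.23 ± 0.41 (SE, adjusted p = 0.0224), LMLN by 1.18, MOCS1 by 1.11, ARHGEF4 by 0.95, PAPLN-AS1 by 0.95, ZFHX2 by 0.89, IGFN1 by 0.72 and AMZ1 by 0.72. At equal array medians these 9 changed by 0.29 (SALL4) to 0.78 (LMLN), and SALL4 no longer passed (adjusted p = 0.152). Each of these rises rests on 1 probe set. SALL4 had no other, and the others of the remaining genes, most near the bottom of the scale, changed by -0.074 (PAPLN-AS1) to 0.14 (LMLN). The other probe set of AMZ1 was brighter untreated (6.36 against 6.22) and changed by -0.054. With the replicate 2 arrays left out, which kept 13 lines (all but line 17), GHSR, SALL4, LMLN, MOCS1, IGFN1 and AMZ1 did not pass. The other rises of the 12 had no called slope. KMT5A, a histone H4 methyltransferase, averaged 8.08 ± 0.34 after MNNG, against 7.33 ± 0.26 untreated (SD, n = 14) on its brightest probe set and rose by 0.75 ± 0.084 (SE, adjusted p = 4.27e-06), but its other 3 probe sets changed by -0.066 to 0.17. MAP3K12 rose by 0.90, with its other probe sets at 0.081 and 0.35, and RPL10L rose by 0.73. Over all genes the slope of the change on the array-median shift passed for 1907 genes, 1129 upward and 778 downward. At equal array medians 4774 genes passed, 4186 of them also called in the paired fit with the same sign. Without lines 14 and 17 the paired fit called 6745 genes, 4493 up and 2252 down.

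**Figure D4:**
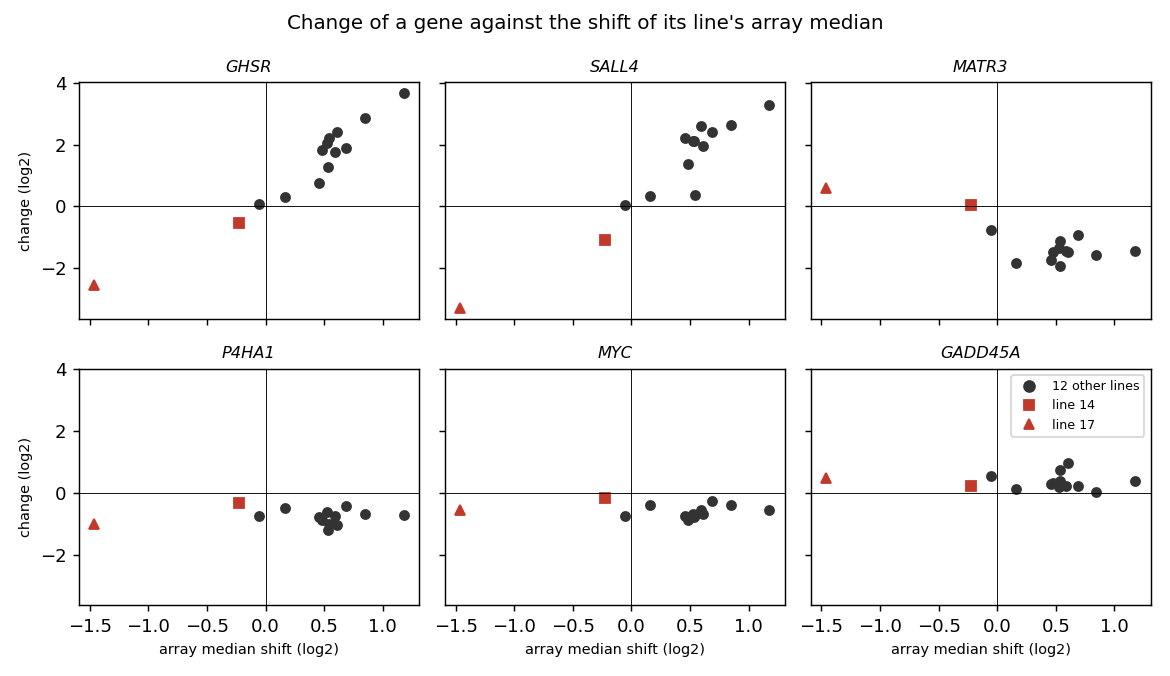
Change of 6 genes (MNNG minus untreated, log2) against the shift of the array median (log2) in each of the 14 lines, with line 14 as a square and line 17 as a triangle. GHSR and SALL4 run from -2.54 and -3.30 in line 17, at a shift of -1.46, to 3.68 and 3.30 in line 24, at 1.18, whereas P4HA1 and MYC lie below 0 at every shift.

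Among the 12 largest falls, MATR3, a nuclear matrix protein, had levels of 5.82, 6.22 and 9.11 after MNNG, against 6.92, 7.77 and 8.51 untreated. It was lower in 12 of 14 lines, all but 14 and 17, and fell, changing by -1.17 ± 0.17 (SE, adjusted p = 3e-05), and by -1.42 without those lines. MALAT1, a long noncoding RNA of nuclear speckles, averaged 10.64 ± 0.72 after MNNG, against 11.73 ± 0.36 untreated (SD, n = 14) and fell, changing by -1.09 ± 0.12 (SE, adjusted p = 3.44e-06) on its brightest probe set, while its 12 probe sets ranged from -1.94 to 0.37, 8 of them below 0. GTF2I, a general transcription factor, was lower in 13 of 14 lines, with an adjusted p of 2.93e-06 in limma and levels of 6.38, 6.85 and 7.25 after MNNG, against 6.69, 7.86 and 8.14 untreated. ARPC4 and VASP, which build actin filaments, fell, changing by -0.86 and -0.69, VASP in 14 of 14 lines. HNRNPL, a splicing regulator, fell, changing by -0.85, and HIRA, a histone chaperone, by -0.72. RIF1, a factor of break repair and replication timing, fell, changing by -0.76 on its brightest probe set, but its 9 probe sets ranged from -0.76 to 0.17, 3 of them above 0. MATR3, RIF1 and HIRA had a called slope with array brightness and changed by -0.85, -0.59 and -0.57 at equal medians. ABLIM1, an actin-binding protein, fell, changing by -0.75 ± 0.23 (SE, adjusted p = 0.016) and changed by -3.51 to 0.84, lowest in line 17. Its slope on the shift also passed, and it changed by -0.54 without lines 14 and 17. NFKB2, P4HA1 and PFKFB4 completed the 12.

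For a small share of genes the MNNG change differed between lines by more than the spread between duplicates, which may be technical. A test of differences between lines in the MNNG change, with 19 residual degrees of freedom and 1 MNNG array in 9 of the 14 lines, passed for 98 of 13818 genes (0.709%), and 1223 had an unadjusted p below 0.05. The 8 genes with the largest F were these. HSPA5, the main chaperone of the endoplasmic reticulum, changed by -0.24 to 0.78 (adjusted p = 1.35e-05), lowest in line 12 and highest in line 17. CDKN1A changed by -0.23 to 0.93 (adjusted p = 0.000535), lowest in line 21 and highest in line 1. Line 1 was also highest for IFNG (1.87), the gene of interferon gamma, which lay near the bottom of the scale in most lines (untreated median 5.60). ASNS, the asparagine synthetase induced by ATF4, changed by -0.66 to 0.15, lowest in line 17, and DDIT4 by -0.87 to 0.06, lowest in line 15. Line 15 also had the largest fall of PFKFB4 (-1.50, adjusted p = 0.00958) and the lowest median of the hypoxia list. PTPN13 changed by -0.48 to 2.26 and rested on line 5, without which it did not pass. CRYBG2 changed by -2.69 to 0.45 and rested on line 17, the line with the dim MNNG array. The histone H2BC12 changed by -0.24 to 0.67, and its call was lost without line 17. CXCL10 (-0.055 to 1.53, highest in line 17 and not passed without it) and MANF (0.15 to 1.01) also passed. The count was 5 on the deposited scale and 10 with arrays centred on their medians, where of the genes named here CRYBG2 and IFNG passed, and 43 without line 17.

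The difference from the low-MGMT lines addressed whether lines with MGMT responded less. Few genes passed: 70 of 13817 (0.507%), of which the change was higher in MGMT-expressing lines for 22 and lower for 48, with 2048 at an unadjusted p below 0.05. MGMT, which made the split, was not tested. Of the 39 damage targets 4 had a lower change in MGMT-expressing lines (SESN1, and SPATA18, TNFRSF10B and FBXO22, which are named because they complete the count, after their values were seen) and 0 a higher one, and the median difference of the list was -0.29, against -0.00084 for all genes. The median change of the list was 0.11 in MGMT-expressing lines and 0.38 in low-MGMT lines.

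TNFSF4, the costimulatory ligand OX40L, changed by -0.093, 0.27 and 0.94 in MGMT-expressing lines (lowest, median and highest) and by 2.51, 1.15, 1.64, 1.17 and 0.83 in the low-MGMT lines 4, 9, 18, 19 and 20. The ranges overlapped slightly, and the difference was -1.12 ± 0.20 (SE, adjusted p = 0.0143). SULF2, a heparan sulfate sulfatase, changed by 0.30 ± 0.28 in MGMT-expressing lines (SD, n = 14) and 1.39 ± 0.57 in low-MGMT lines (SD, n = 5), with no overlap, and the difference was -1.09 ± 0.17 (SE, adjusted p = 0.00755). GAL3ST4, a sulfotransferase, changed by 0.14 ± 0.22 in MGMT-expressing lines (SD, n = 14) and 1.08 ± 0.53 in low-MGMT lines (SD, n = 5), and FHL2, a cofactor with LIM domains, by 0.26 ± 0.16 in MGMT-expressing lines (SD, n = 14) and 1.13 ± 0.61 in low-MGMT lines (SD, n = 5). Neither pair of ranges overlapped, and the differences were -0.94 ± 0.15 (SE, adjusted p = 0.00836) and -0.87 ± 0.16 (SE, adjusted p = 0.0143). These genes were named for the size of their difference. Over the 13817 genes the line changes did not overlap for 22 that were lower in MGMT-expressing lines (0.159%) and 6 that were higher (0.0434%). SESN1, a stress-induced regulator of growth signalling, changed by -0.28, 0.0056 and 0.34 in MGMT-expressing lines and by 1.72, 0.96, 0.74, 0.62 and 0.054 in low-MGMT lines 4 to 20, a difference of -0.78 ± 0.15 (SE, adjusted p = 0.025). FEZ1, a transport adaptor, differed by -0.75 ± 0.16 (SE, adjusted p = 0.038). SULF2, GAL3ST4, SESN1 and FHL2 lay near the bottom of the scale, with untreated means of 5.97, 5.94, 6.08 and 6.14 in MGMT-expressing lines.

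In the other direction PECAM1, an adhesion molecule of leukocytes and endothelium, changed by -0.69, 0.17 and 0.61 in MGMT-expressing lines and by -1.15, -0.68, -0.58, -1.08 and -1.61 in low-MGMT lines. It was lower after MNNG in all 5 low-MGMT lines, and the difference was 1.07 ± 0.18 (SE, adjusted p = 0.0113). CNTNAP2 differed by 0.66 ± 0.14 (SE, adjusted p = 0.038), the growth factor gene IGF1 by 0.57, WNT4 by 0.51, the mannose phosphate isomerase MPI by 0.48 and QPRT, an enzyme of NAD synthesis, by 0.44. CNTNAP2 and WNT4 lay near the bottom of the scale.

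**Figure D5:**
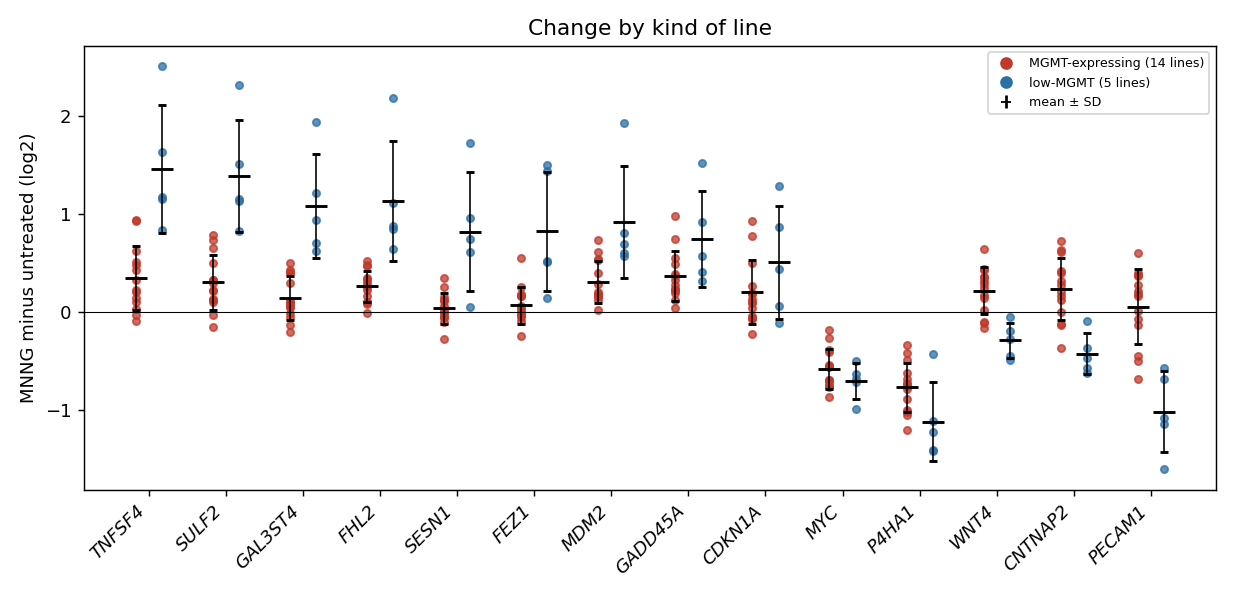
MNNG minus untreated (log2) of 14 genes in the MGMT-expressing lines (red, left of each pair, 14 lines) and the low-MGMT lines (blue, right, 5 lines), with means and SD. SULF2, GAL3ST4 and FHL2, named for their difference, are among the 0.159% of genes that are lower in every MGMT-expressing line than in any low-MGMT line, whereas MYC and P4HA1 lie below 0 in every line of both.

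Several damage genes had a larger mean rise in low-MGMT lines without passing. MDM2 changed by 0.31 ± 0.22 in MGMT-expressing lines (SD, n = 14) and 0.92 ± 0.57 in low-MGMT lines (SD, n = 5), a difference of -0.61 ± 0.16 (SE, adjusted p = 0.0709). GADD45A changed by 0.37 ± 0.25 in MGMT-expressing lines (SD, n = 14) and 0.75 ± 0.49 in low-MGMT lines (SD, n = 5), a difference of -0.38 ± 0.15 (SE, adjusted p = 0.245), and CDKN1A by 0.20 ± 0.33 in MGMT-expressing lines (SD, n = 14) and 0.51 ± 0.58 in low-MGMT lines (SD, n = 5), a difference of -0.31 ± 0.19 (SE, adjusted p = 0.455). The differences in the falls of P4HA1 and MYC were 0.35 ± 0.14 (SE, adjusted p = 0.229) and 0.12 ± 0.096 (SE, adjusted p = 0.58), and neither passed. Of the 36 glycolysis and hypoxia genes 0 passed, where 0.507% of all genes did. Their median change was -0.32 in MGMT-expressing lines and -0.41 in low-MGMT lines, and the median difference was 0.17. ALDOC changed by -0.55 ± 0.38 in MGMT-expressing lines (SD, n = 14) and -1.41 ± 0.57 in low-MGMT lines (SD, n = 5), a difference of 0.86 ± 0.20 (SE, adjusted p = 0.0532), and PFKFB4 differed by 0.61 ± 0.18 (SE, adjusted p = 0.11). For comparison, TNFSF4, MDM2 and CDKN1A changed by 4.87, 2.95 and 2.95 in TK6, which is at the bottom of the MGMT scale (5.17). In MT1 (5.23), which kept 1 MNNG array, they changed by 0.80, 0.50 and 0.087. The count of 70 depended on single lines. It was 10 without low-MGMT line 4, which had the highest change of TNFSF4, SULF2, GAL3ST4, FHL2, SESN1 and MDM2, 422 without low-MGMT line 20, and 302 without line 17. With each gene's probe sets averaged 16 passed, and SULF2, FEZ1, PECAM1, IGF1, MPI and QPRT did not. With the array-median shift as a covariate 25 passed, 22 of them among the 70, and TNFSF4 (-0.98), SULF2 (-1.07), GAL3ST4, FHL2, FEZ1 and PECAM1 (1.08) were among them. The kinds of line differ in untreated MGMT by choice, and what else differs between their donors was not tested.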

How the data were processed

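RNA of 26 human lymphoblastoid lines, untreated and after MNNG, was measured on 104 Affymetrix arrays of 54675 probe sets. The authors deposited 1 intensity per probe set and array on a linear scale, summarised with PLIER per the submitters' processing notes. Neither the PLIER version nor a background step, scaling between arrays or batch is stated in the labels. Values ran from 16 to 65535, a ceiling reached by 71 of them. Precision is limited by the number of arrays. The labels do not describe duplicates as separate cultures, so p-values based on them may measure technical spread only.

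Intensities plus 16 were taken to log2 and quantile normalised over the 82 arrays kept. Of the probe sets 41097 had 1 gene in the platform annotation, 1801 several and 11777 none. Probe sets with 1 gene were used, without 58 for Y-linked genes or XIST, and the brightest stood for each gene. The lowest 30% of 19741 genes by mean level were left out. Duplicates were averaged per line, and limma 3.58.1 (R 4.3.3) fitted the mean MNNG minus untreated change of the lines, the difference between kinds of line, and an F test of line by treatment on arrays, with a trended prior and Benjamini-Hochberg adjustment at 0.05. The fits were run on simulated data, with results not given here. Noise was drawn independently for each gene, without shifts of array brightness or a dim array, so the runs do not cover those features.

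Replicate numbers were not used to pair arrays in the main fits, since the labels do not say what same-numbered arrays share. The deviations of same-numbered MNNG and untreated arrays correlated at -0.62 to 0.14 over 5 lines. Named genes were the 12 largest rises and falls with the same direction in at least 12 lines, up to 4 per gene list, 12 single genes of interest, the 8 largest F, and the 6 largest differences each way. Further list members, quoted to describe their lists, were chosen after their values were seen. The lines and lists were chosen with earlier results of these data known. Promoters were RefSeq sequences of GRCh38.p14. Some genes are not reported here.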

Additional observations from a re-analysis of the deposited data

Results flagged for a closer look

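Of 16 sets of changes examined for a line far from the others, 1 held such a line. The sets are genes in the same 5 lines and are not independent, so the number to expect by chance is not known. MDM2 changed by 1.93 in low-MGMT line 4, and the next highest of the 5 low-MGMT lines was 0.806. The gap was 0.829 of the range, above Dixon's critical value of 0.71 for 5 samples. Line 4 kept 1 MNNG array, so this value has no duplicate.

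The test of the difference between kinds of line passed for 70 genes, of which the 12 named by size are given. The change was lower in MGMT-expressing lines than in low-MGMT lines by differences of -1.12 for TNFSF4, -1.09 for SULF2, -0.938 for GAL3ST4, -0.873 for FHL2, -0.785 for SESN1 and -0.754 for FEZ1. It was higher in MGMT-expressing lines by 1.07 for PECAM1, 0.658 for CNTNAP2, 0.567 for IGF1, 0.509 for WNT4, 0.484 for MPI and 0.441 for QPRT. With the array-median shift as a covariate SESN1, CNTNAP2, IGF1, WNT4, MPI and QPRT did not pass. The part of array brightness and of single low-MGMT lines in these differences was not tested further.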

How the results depend on the processing

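The paired response kept its count of genes within 1.5 times under other pseudocounts, filters, probe-set rules, variances and thresholds, and in 1 fit with both kinds of line. So it did, in settings chosen after seeing the data, with the array-median shift as a covariate or without lines 14 and 17. With each gene's probe sets averaged 5420 passed, 3093 up and 2327 down. Of the 5402 main calls measured there, 92.2% kept their sign and 4058 passed again with the same sign. The paired fit passed 2918 genes with arrays centred on their medians, 8981 with all arrays kept, 0 with the 5 lines that kept both MNNG arrays and 1403 with no line block. A replicate block on those 5 lines passed 705, where the numbers are not known to share a source. Leaving out a replicate gave 0 to 3886 genes, and leaving out a line 4954 to 6294. The 0 was without replicate 1, on 6 lines, with 1809 at an unadjusted p below 0.05 and 96.7% of signs kept. Those arrays also gave the main calls, so the kept signs are in part built in. The difference between kinds of line passed 2 genes on the deposited scale, 20 with median centring, 16 with the mean of all probe sets, 2 with all arrays kept, 12 with both MNNG arrays, 302 at an MGMT threshold of 7.5 (without line 17), 27 with weights by kind of line, and, chosen after seeing the data, 25 with the shift as covariate and 453 without lines 14 and 17. Leaving out a replicate gave 0 to 2 and leaving out a line 10 to 422 (low-MGMT lines added after seeing the data). Differences among lines passed 5 genes on the deposited scale, 10 with median centring, 58 with no filter, 41 with all arrays and 10 with both MNNG arrays, and 43 to 133 when 1 line was left out. Signs turned with median centring for CDKN1A (-0.0063), PCNA (-0.0099), FEN1 (-0.011) and the difference of MYC (-0.10), and on the deposited scale for MPG (0.044). With a replicate or a line left out they turned for MPG (-0.11 to 0.13) and LYZ (-0.016 to 0.74), lower for LYZ without replicate 2, and with both MNNG arrays or the replicate block for ABLIM1 (0.00051). With all arrays kept they turned for CDKN1A (-1.83), GADD45A (-0.088; its difference 0.29), FEN1 (-0.0068), XRCC2 (0.18), EGR3 (0.10), DUSP5 (0.089), SPIB (0.032), TNFRSF17 (-1.12), ATP5MC1 (-1.52), NDUFB8 (-0.39), NDUFB3 (-1.55), SDF2L1 (-0.88), MANF (-0.97), NSDHL (-0.27), HSPE1 (-0.32), BUB1 (0.13), RPL10L (-0.52) and the difference of P4HA1 (-0.039). Apart from fewer lines entering a fit, the cause was not tested. The dim MNNG array of line 17, with its median at the floor, limits what can be read for weakly expressed genes there.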
